A study of Arabidopsis thaliana with 15 samples.

Results

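BIM1, BRL1 and BAT1 are 3 genes of the brassinosteroid pathway of Arabidopsis thaliana, read here across wild-type seedlings, a brassinosteroid receptor mutant and 3 suppressed lines of that mutant. They were chosen by name, with earlier results of these data known, as the brassinosteroid signalling and inactivation genes for which the platform's gene table lists a probe set with that single gene. Each had 1 such probe set (BIM1 is locus AT5G08130 on chromosome 5, BRL1 is AT1G55610 on chromosome 1 and BAT1 is AT4G31910 on chromosome 4), so 3 of the 22810 probe sets on the array were followed. All 3 passed the filter on low values and were tested together with 15912 probe sets in all.

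Brassinosteroids are plant steroid hormones that promote cell elongation. They are bound at the cell surface by the receptor kinase BRI1, which works with the co-receptor kinase BAK1, and the signal ends on the transcription factors BES1 and BZR1. BRL1 is a close relative of BRI1 that also binds brassinosteroid and acts mainly in vascular tissue. BIM1 is a basic helix-loop-helix transcription factor that binds DNA together with BES1 at brassinosteroid-responsive promoters. BAT1 is an acyltransferase of the BAHD family that conjugates brassinosteroids, and plants that overexpress it look deficient in the hormone.

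The samples were whole 5-day-old seedlings raised in light on solid medium with 1% sucrose, all in the WS2 genetic background, with 3 arrays per genotype and 15 arrays in all. WS2 is the wild type, and bri1-5 carries a weak allele of the receptor gene BRI1. The lines bri1-5/bri1-1D, bri1-5/bak1-1D and bri1-5/brs1-1D all still carry bri1-5, together with a dominant suppressor named after BRI1, BAK1 or the serine carboxypeptidase-like gene BRS1, and are called bri1-1D, bak1-1D and brs1-1D here. Levels of BRI1, BAK1 and BRS1 themselves were not analysed here, because the gene table pairs none of the probe sets with them, so the genotype labels were not checked on the arrays. The study states that the 3 arrays of each genotype are biological replicates.

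Levels are the authors' log2 values per probe set, on which 1 unit is a doubling. Median log2 values over tested probe sets lay between 6.75 and 6.82 on the 15 arrays, and correlations between arrays across probe sets, which are not independent replicates, were 0.990 to 0.995 within genotypes and 0.976 to 0.993 between them. Of the markers listed for the labelled tissue, 1 of 16 for shoot (the light-harvesting gene LHCB4.1, at 12.6 to 12.8) and 3 of 12 for root (EXPA7, EXPA18 and PYK10) had a named probe set, and all 4 lay above 4 on every array. None of the 7 seed storage markers had one. In whole seedlings, fewer cells of a type and less RNA per cell cannot be told apart.

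BIM1 was highest in brs1-1D and lowest in WS2. The WS2 arrays read 7.05, 6.80 and 6.94 on the log2 scale and those of bri1-5 7.27, 7.19 and 7.13. The bri1-1D arrays read 7.36, 7.32 and 7.28, and the brs1-1D arrays 7.49, 7.58 and 7.35. In bak1-1D the values were 6.996, 7.18 and 6.70, the widest spread of BIM1 in any genotype. All 9 arrays of bri1-5, bri1-1D and brs1-1D thus lay above all 3 WS2 arrays, while the bak1-1D arrays overlapped WS2 and, through replicate 2, bri1-5.

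BRL1 was highest in brs1-1D and lowest in WS2 as well, but close to the low end of the scale. The WS2 arrays read 3.76, 3.81 and 3.55 and the bak1-1D arrays 3.75, 3.69 and 3.75. The bri1-5 arrays read 3.94, 4.15 and 3.99, the bri1-1D arrays 3.75, 4.12 and 3.92, and the brs1-1D arrays 4.34, 4.19 and 3.90. Only 4 of 15 arrays lay above the log2 value of 4 that the filter used, 1 in bri1-5, 1 in bri1-1D and 2 in brs1-1D. BRL1 therefore passed the filter through the genotypes in which it was high, and its calls carry that condition.

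BAT1 varied least. The WS2 arrays read 7.38, 7.67 and 7.77, the bri1-5 arrays 7.48, 7.39 and 7.61, and the bri1-1D arrays 7.39, 7.49 and 7.51. The bak1-1D arrays read 7.49, 7.49 and 7.69 and the brs1-1D arrays 7.44, 7.51 and 7.33. The 3 arrays of every genotype overlapped those of every other genotype. The value of BAT1 was identical on bak1-1D replicates 1 and 2, as were the values of 232 of the 22810 probe sets on these arrays, against a median of 207 over all 105 pairs of arrays.

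**Figure D1:**
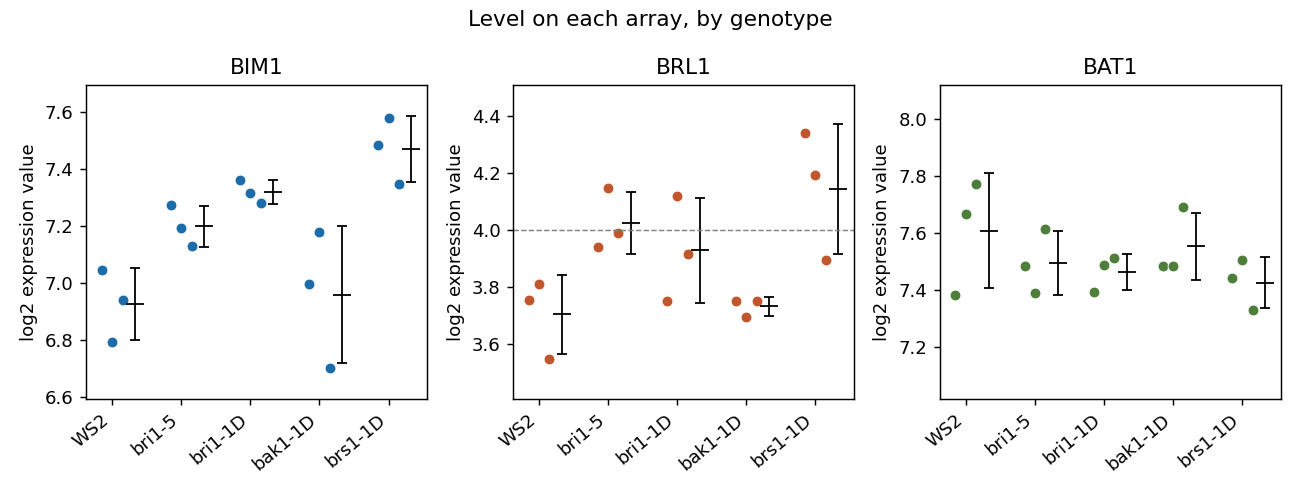
Log2 expression value (y axis, a span of equal height in each panel) of BIM1, BRL1 and BAT1 in the 5 genotypes (x axis). Each point is 1 array, the black bar is the mean with its SD (n = 3), and the dashed line in the BRL1 panel is the log2 value of 4 used by the filter. BIM1 and BRL1 stand highest in brs1-1D and lowest in WS2, and the BAT1 groups all overlap.

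Whether a gene differed between any of the 5 genotypes was asked with limma's moderated F test. BIM1 (adjusted p = 0.00473) and BRL1 (adjusted p = 0.0310) passed it and BAT1 did not (adjusted p = 0.536). Of all tested probe sets 27.1% passed, so a pass by itself was common in this series. The differences between genotypes held 77.4% of the variance of BIM1, 64.5% of that of BRL1 and 28.2% of that of BAT1, where the median over tested probe sets was 50.1%. The residual SD between arrays of a genotype was 0.14 for BIM1, 0.15 for BRL1 and 0.13 for BAT1, near the median of 0.13 over tested probe sets. The BRL1 call was kept in 8 of the 15 fits that left out 1 array. It ended without WS2 replicate 1 or 3, any 1 of the 3 bak1-1D arrays, or brs1-1D replicate 1 or 2 (adjusted p up to 0.0696). It also ended when values under 4 were raised to 4 (adjusted p = 0.343).

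The first pairwise question was what the receptor mutation goes with. BIM1 stood 0.27 ± 0.11 higher in bri1-5 than in WS2 on the log2 scale (SE of the fit, n = 3 against 3), a ratio of 1.21, and was not called over all tested probe sets (limma adjusted p = 0.0941). BRL1 stood 0.32 ± 0.12 higher and was not called either (limma adjusted p = 0.0673). With the replicate number as a block, BRL1 was called (0.32 ± 0.11, limma adjusted p = 0.0472). Raising values under 4 to 4 shrank the BRL1 difference to 0.05 ± 0.08 (limma adjusted p = 0.736). The BAT1 difference was -0.11 ± 0.10 (limma adjusted p = 0.485), with a 95% interval from -0.33 to 0.10. In total 0 of the 3 genes were called by limma, 2 had an unadjusted p under 0.05, and 17.6% of all tested probe sets were called. BIM1 and BRL1 were the 2 of 3 genes whose 3 mutant arrays all lay to one side of the WS2 arrays, as did 36.2% of tested probe sets.

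The next question was what each suppressor goes with in the bri1-5 mutant. In bak1-1D against bri1-5 the differences were -0.24 ± 0.11 for BIM1 (limma adjusted p = 0.237), -0.29 ± 0.12 for BRL1 (limma adjusted p = 0.178) and 0.06 ± 0.10 for BAT1 (limma adjusted p = 0.797). None of the 3 genes was called by limma, where 4.34% of tested probe sets were, although 2 had an unadjusted p under 0.05. For BRL1 alone all bak1-1D arrays lay below all bri1-5 arrays, as 26.7% of tested probe sets lay to one side. The intervals of these differences reached from -0.47 to -0.01 for BIM1 and from -0.54 to -0.05 for BRL1 before any adjustment. Raising values under 4 to 4 shrank the BRL1 difference to -0.05 ± 0.08 (limma adjusted p = 0.791).

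In brs1-1D against bri1-5 BIM1 stood 0.27 ± 0.11 higher (limma adjusted p = 0.211), and every brs1-1D array lay above every bri1-5 array. BRL1 differed by 0.12 ± 0.12 (limma adjusted p = 0.677) and BAT1 by -0.07 ± 0.10 (limma adjusted p = 0.793). By limma 0 of the 3 genes were called, with 1 at an unadjusted p under 0.05, against 1.72% of tested probe sets called and 20.1% with groups that did not overlap. In bri1-1D against bri1-5 the differences were 0.12 ± 0.11 for BIM1, -0.10 ± 0.12 for BRL1 and -0.03 ± 0.10 for BAT1, with limma adjusted p from 0.769 to 0.956. There 0 were called and 0 had an unadjusted p under 0.05, against 0.245% of tested probe sets called by limma. The BIM1 arrays of bri1-1D lay above those of bri1-5 by a gap of 0.0067 on the log2 scale, and 13.6% of tested probe sets had groups that did not overlap. The 3 suppressor comparisons share the bri1-5 arrays with each other and with the comparison of bri1-5 with WS2.

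The suppressed lines were then set against wild type. In brs1-1D BIM1 was higher than in WS2 by 0.54 ± 0.11 on the log2 scale, a ratio of 1.46 (limma adjusted p = 0.00209), and this call was kept in all 15 fits that left out 1 array and under all 8 other alternatives. BRL1 was higher by 0.44 ± 0.12 (limma adjusted p = 0.0137), with all 3 WS2 arrays and 1 of the 3 brs1-1D arrays under 4, so no ratio is given. That call was lost without WS2 replicate 3 (adjusted p = 0.0659), without brs1-1D replicate 1 (adjusted p = 0.0682) and with values under 4 raised to 4 (0.18 ± 0.08, adjusted p = 0.141). BAT1 differed by -0.18 ± 0.10 (limma adjusted p = 0.228, 95% interval -0.40 to 0.03), its largest difference in any comparison. Without WS2 replicate 1, the lowest BAT1 array of WS2, that difference was -0.29 ± 0.10 (adjusted p = 0.0522), and without WS2 replicate 3 it was -0.10 ± 0.11 (adjusted p = 0.577). So 2 of the 3 genes were called higher, where 10.9% of tested probe sets were called higher, and the same 2 had groups that did not overlap, as did 35.4% of tested probe sets. Of the 2, BRL1 passed the filter partly through its brs1-1D arrays, so this count carries that condition.

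In bri1-1D BIM1 was higher than in WS2 by 0.39 ± 0.11, a ratio of 1.31 (limma adjusted p = 0.0176). That call ended without WS2 replicate 2 (adjusted p = 0.0796) or bri1-1D replicate 1 (adjusted p = 0.0507). BRL1 (0.22 ± 0.12, limma adjusted p = 0.186) and BAT1 (-0.14 ± 0.10, limma adjusted p = 0.342) were not called. This made 1 of 3 genes called higher, where 10.4% of tested probe sets were, and BIM1 was the 1 gene without overlap, against 35.7% of tested probe sets.

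In bak1-1D none of the 3 genes was called against WS2. BIM1 differed by 0.03 ± 0.11 with a 95% interval from -0.20 to 0.26 (limma adjusted p = 0.891). BRL1 differed by 0.03 ± 0.12, with an interval from -0.22 to 0.27 (limma adjusted p = 0.915), and BAT1 by -0.05 ± 0.10, with an interval from -0.27 to 0.16 (limma adjusted p = 0.794). By limma 10% of tested probe sets were called in this comparison, 0 of the 3 genes had an unadjusted p under 0.05, and all 3 overlapped WS2, whereas 31.9% of tested probe sets did not.

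**Figure D2:**
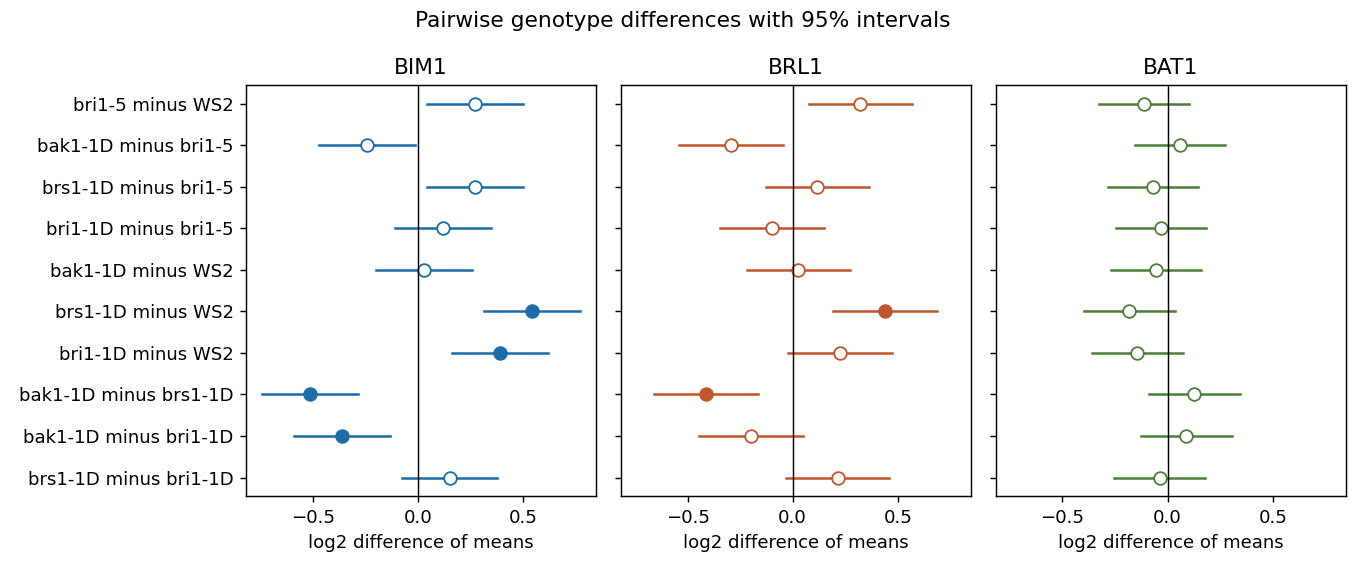
Log2 difference of genotype means (x axis) for the 10 pairwise comparisons (y axis, first genotype minus second) of BIM1, BRL1 and BAT1. Points are estimates of the fit over 15 arrays, lines are 95% intervals before adjustment, and filled points have a limma adjusted p under 0.05 over all tested probe sets. The 6 filled points are BIM1 in brs1-1D and bri1-1D against WS2 and in bak1-1D against both other suppressed lines, and BRL1 in brs1-1D against WS2 and against bak1-1D.

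The suppressed lines were also compared with each other, which tests whether their distances from bri1-5 differ. BIM1 was lower in bak1-1D than in brs1-1D by 0.51 on the log2 scale (difference -0.51 ± 0.11, ratio 0.702, limma adjusted p = 0.00782), a call kept in all 15 fits that left out 1 array. BRL1 was lower there too (-0.41 ± 0.12, limma adjusted p = 0.0385), and all bak1-1D arrays of both genes lay below all brs1-1D arrays. The BRL1 call was kept in 9 of 15 fits that left out 1 array and ended without bri1-5 replicate 3, any 1 of the 3 bak1-1D arrays, or brs1-1D replicate 1 or 2 (adjusted p up to 0.160). It also ended with values under 4 raised to 4, when the difference was -0.18 ± 0.08 (adjusted p = 0.222). BAT1 differed by 0.13 ± 0.10 (limma adjusted p = 0.518). That gave 2 of 3 genes called lower, where 3.99% of tested probe sets were called lower, and 2 without overlap, where 26.7% of tested probe sets had none. BRL1, 1 of these 2, passed the filter partly through its brs1-1D arrays, so this count carries that condition.

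BIM1 was also lower in bak1-1D than in bri1-1D (-0.36 ± 0.11, limma adjusted p = 0.0440), which was 1 of 3 genes where 4.27% of tested probe sets were called lower and 29.6% did not overlap. This call was the least stable, kept in 6 of 15 fits that left out 1 array. It ended without WS2 replicate 3, bri1-5 replicate 2 or 3, any 1 of the 3 bri1-1D arrays, bak1-1D replicate 1 or 3, or brs1-1D replicate 1. Without bak1-1D replicate 3, the lowest BIM1 array of all, the difference was -0.23 ± 0.10 (adjusted p = 0.197). In that comparison BRL1 (-0.20 ± 0.12, limma adjusted p = 0.306) and BAT1 (0.09 ± 0.10, limma adjusted p = 0.620) were not called. Between brs1-1D and bri1-1D none was called by limma, where 2.17% of tested probe sets were. The differences there were 0.15 ± 0.11 for BIM1 (limma adjusted p = 0.509), 0.21 ± 0.12 for BRL1 (limma adjusted p = 0.373) and -0.04 ± 0.10 for BAT1 (limma adjusted p = 0.888). In this comparison 0 of the 3 genes had an unadjusted p under 0.05, and all 3 overlapped, while 18.1% of tested probe sets did not.

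Read as an order, the mean levels of BIM1 fell from brs1-1D (7.47 ± 0.12, SD, n = 3) through bri1-1D (7.32 ± 0.04), bri1-5 (7.20 ± 0.07) and bak1-1D (6.96 ± 0.24) to WS2 (6.93 ± 0.13). No pair of neighbours in this order was called, and the calls lay between the upper 2 and the lower 2 genotypes. The order of BRL1 was brs1-1D (4.14 ± 0.23), bri1-5 (4.03 ± 0.11), bri1-1D (3.93 ± 0.18), bak1-1D (3.73 ± 0.03) and WS2 (3.70 ± 0.14), again with no call between neighbours. The order of BAT1 was that of BIM1 turned round, with WS2 first (7.61 ± 0.20), then bak1-1D (7.55 ± 0.12), bri1-5 (7.50 ± 0.11), bri1-1D (7.47 ± 0.06) and brs1-1D (7.43 ± 0.09). None of its 10 pairwise differences was called by limma and 0 had an unadjusted p under 0.05. Without WS2 replicate 1 the differences of BAT1 from WS2 were larger, at -0.22 ± 0.10 in bri1-5 (adjusted p = 0.146) and -0.26 ± 0.10 in bri1-1D (adjusted p = 0.0856), and still not called. All 10 of the BAT1 intervals lay between -0.40 and 0.34 on the log2 scale. BIM1 was called in 4 of 10 comparisons, with 7 at an unadjusted p under 0.05, and BRL1 in 2, with 4 at an unadjusted p under 0.05. The 10 comparisons share the means of 5 genotypes and hold 4 independent contrasts, so the calls counted here are not separate results.

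**Figure D3:**
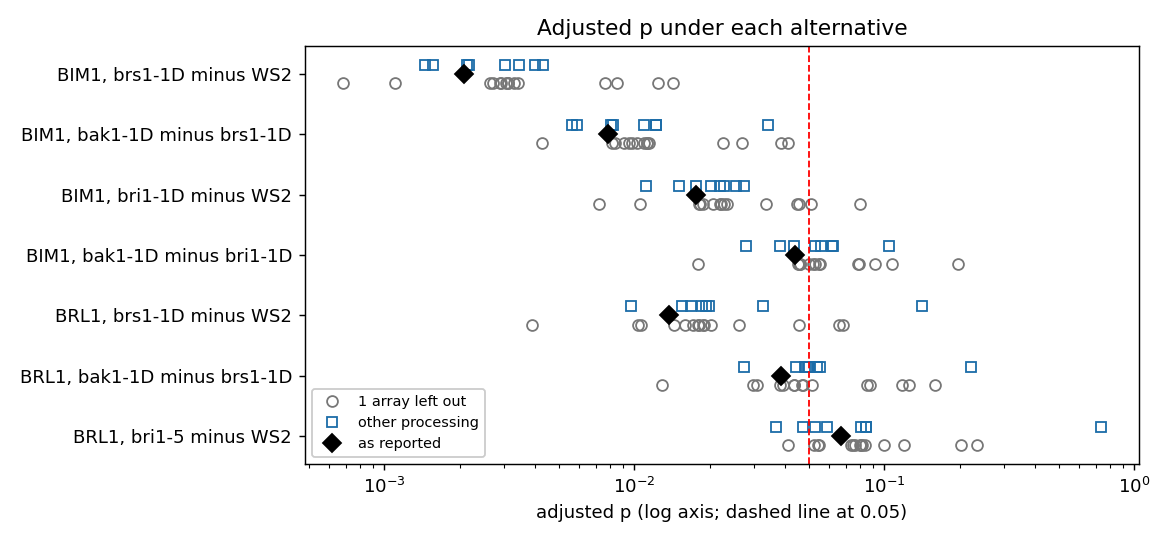
Limma adjusted p (x axis, log scale) of the 6 called differences of BIM1 and BRL1 and of BRL1 in bri1-5 against WS2 (y axis). The diamond is the value as reported, circles are fits without 1 array, squares are the other processing alternatives, and the dashed line is at 0.05. All markers of BIM1 in brs1-1D against WS2 and against bak1-1D lie to the left of the line, and those of the other 5 differences lie on both sides.

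The rest of the pathway was largely without named probe sets. Of 36 genes listed for brassinosteroid signalling, BIM1 and BRL1 were the 2 with one, BAT1 was the 1 of 7 for inactivation, and biosynthesis had 0 of 10. Of 15 brassinosteroid-induced genes, which lie downstream of the receptor, 5 were tested: EXO, a growth-promoting extracellular protein, the expansin EXPA8, the cell wall enzyme XTH19, the tubulin TUB1 and the organ size regulator ARL. All 5 were lower in bri1-5, bri1-1D, brs1-1D and bak1-1D than in WS2, where 8.14%, 10.3%, 9.46% and 5.14% of tested probe sets were called lower. The list was chosen with earlier results of these data known, so its counts carry that condition. In bak1-1D against brs1-1D, where BIM1 and BRL1 were lower, 4 of the 5 were called higher, as were 3.99% of tested probe sets, with a median log2 difference of 0.75 against -0.03 over all tested probe sets. In bak1-1D against bri1-5, where neither BIM1 nor BRL1 was called, 4 of the 5 were called higher. There 4.34% of tested probe sets were called in either direction. In bak1-1D against bri1-1D 3 of the 5 were called higher, where 1611 of 15912 tested probe sets were called in either direction. In brs1-1D and bri1-1D against bri1-5, 1 of the 5 (ARL) was called, lower in both. Called there were 1.72% and 0.245% of tested probe sets. EXO had a mean level of 9.50 ± 0.18 in WS2, 8.88 ± 0.32 in bak1-1D, 7.24 ± 0.41 in bri1-5, 6.93 ± 0.19 in bri1-1D and 6.79 ± 0.05 in brs1-1D, which is the order of BIM1 reversed. XTH19 had that order too, so it held for 2 of the 5. In neither gene was a difference among bri1-5, bri1-1D and brs1-1D called, so the lower places of the order are not resolved. For BIM1 no pair of neighbours was called, and bak1-1D stood only 0.03 ± 0.11 from WS2 (limma adjusted p = 0.891). EXPA8 and TUB1 were lowest in bri1-5 (6.06 ± 0.35 and 7.60 ± 0.14), and ARL was lowest in bri1-1D (6.99 ± 0.01). These comparisons use the same arrays as those of BIM1 and BRL1.

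Relatives of each protein moved in several ways. Among basic helix-loop-helix factors other than BIM1, 5 of 25 listed were tested. FAMA, which acts at the last step of the stomatal lineage, was lower in bak1-1D than in brs1-1D (-0.49 ± 0.11, limma adjusted p = 0.0138) and than in bri1-1D (-0.46 ± 0.11, limma adjusted p = 0.0165), the comparisons in which BIM1 was lower. SPCH, which starts that lineage, was lower in brs1-1D than in WS2 (-0.41 ± 0.08, limma adjusted p = 0.00305), where BIM1 was higher, and was lower in bak1-1D than in WS2 as well (-0.53 ± 0.08, limma adjusted p = 0.00113). SPCH was also lower in bri1-5 than in WS2 (-0.27 ± 0.08, limma adjusted p = 0.0408), and lower in bak1-1D than in bri1-1D (-0.41 ± 0.08, limma adjusted p = 0.00586), where BIM1 was lower too. SPT, a regulator of growth and carpel development, rose in bri1-5 against WS2 (0.33 ± 0.09, limma adjusted p = 0.0239) and fell in bak1-1D and brs1-1D against bri1-5 (-0.35 ± 0.09 and -0.45 ± 0.09). ALC and ILR3 were called in none of the 10 comparisons.

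Of 28 other receptor kinases with leucine-rich repeats, 2 were tested. The immune receptor EFR was higher in all 4 lines with bri1-5 than in WS2, by 0.69 to 0.85 on the log2 scale, and PSY1R, a receptor for a sulfated peptide, was not called in any comparison. EFR in bak1-1D stood 0.70 ± 0.15 above WS2 (limma adjusted p = 0.00879), where BRL1 stood at 0.03 ± 0.12. Of 12 other BAHD acyltransferases 3 were tested. HCT, an enzyme of lignin precursor synthesis, was higher in bri1-5 (0.50 ± 0.11, limma adjusted p = 0.00546) and in brs1-1D (0.64 ± 0.11, limma adjusted p = 0.000746) than in WS2, and lower in bak1-1D than in brs1-1D (-0.43 ± 0.11, limma adjusted p = 0.0244). FACT, which transfers caffeic acid to fatty alcohols of root waxes, fell in bri1-5 against WS2 (-0.41 ± 0.10, limma adjusted p = 0.0109). FACT and the wax synthesis gene CER26 were lower in bri1-1D than in WS2 (-0.36 ± 0.10 and -0.40 ± 0.12). BAT1 was called in none of these comparisons.

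The root markers, given because the samples were whole seedlings, had mean log2 levels of 7.58 to 7.81 on the WS2 arrays, 7.33 to 7.55 in bri1-5, 7.24 to 7.48 in bri1-1D, 7.56 to 7.86 in bak1-1D and 7.69 to 7.85 in brs1-1D. Of the 3, EXPA7, an expansin of root hair cells, was higher in bak1-1D than in bri1-1D (0.57 ± 0.16, limma adjusted p = 0.0290), where BIM1 was lower, and higher in brs1-1D than in bri1-1D (0.67 ± 0.16, limma adjusted p = 0.0329), where none of BIM1, BRL1 and BAT1 was called. EXPA18 and PYK10 were called in none of the 10 comparisons. The part of these markers and of LHCB4.1 in the differences of BIM1 and BRL1 was not tested.

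The genes whose levels followed each member most closely over the 15 arrays were looked up among 8658 other tested probe sets with 1 gene, by Pearson correlation, which is given as a description because arrays of a genotype share their group and the highest of many were taken. For BIM1 these were HOS3-1 (r = 0.906), AT5G47330 (0.888), NGA3 (0.881), UGT72B3 (0.880) and AT3G16560 (0.880). NGA3 is a B3-domain transcription factor and UGT72B3 a glycosyltransferase. AT5G47330 had the widest range of the 5, with genotype means of 4.86 in WS2, 5.47 in bak1-1D, 6.10 in bri1-5, 6.68 in bri1-1D and 6.89 in brs1-1D. All 5 stood higher in brs1-1D than in WS2, by 0.32 (UGT72B3) to 2.04 (AT5G47330) on the log2 scale, and AT3G16560 was the 1 of 5 whose mean was highest in bri1-1D. Choosing the 5 by correlation with BIM1 favours such a shared direction.

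For BRL1 the 5 were AT5G02430 (r = 0.892), AT1G03350 (0.891), AT1G80245 (0.886), AT2G01740 (0.883) and AT1G71080 (0.879). Their range between genotypes was small, with brs1-1D above WS2 by 0.18 (AT1G03350) to 0.38 (AT5G02430) on the log2 scale. Of these 5, 1 passed the F test (AT1G80245, limma adjusted p = 0.0167), where 27.1% of all tested probe sets passed. For BAT1 they were AT4G29270 (r = 0.800), AT3G52360 (0.791), AT3G45710 (0.788), AT1G05310 (0.779) and AT5G62865 (0.768). All 5 of these had their highest mean in WS2, as BAT1 did, and choosing them by correlation with BAT1 favours that. AT1G05310 was the 1 of them to pass the F test (limma adjusted p = 0.0167), again beside 27.1% of all tested probe sets. With Spearman's correlation in place of Pearson's, 2 of the 5 for BIM1, 2 for BRL1 and 1 for BAT1 were again among the first 5.

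**Figure D4:**
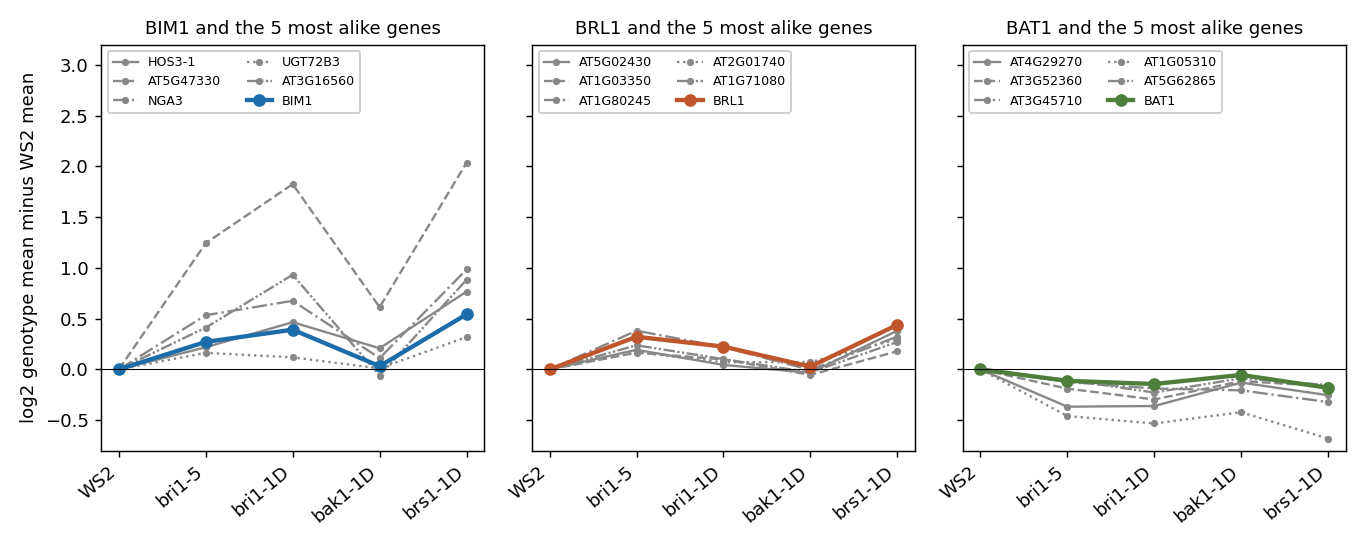
Genotype mean minus WS2 mean on the log2 scale (y axis) in the 5 genotypes (x axis), for each of BIM1, BRL1 and BAT1 (thick coloured line) and its 5 most alike genes by Pearson correlation over 15 arrays (grey lines). The BIM1 and BRL1 panels peak in brs1-1D for 4 of 5 grey lines each, all 10 of these lines lie lower in bak1-1D than in brs1-1D, and the BAT1 panel lies at or below 0 throughout.

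On chromosome 4, BAT1 lies between BRS1 and BAK1 in the RefSeq gene order (TAIR10.1), with 145 protein-coding genes between it and BRS1 and 162 between it and BAK1. BAT1 differed from bri1-5 by -0.07 ± 0.10 in brs1-1D and by 0.06 ± 0.10 in bak1-1D, and neither difference was called.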

How the data were processed

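The deposited log2 values per probe set were made by the authors with GCRMA, per the submitters' processing notes; the sources used here name neither its version nor its settings. They ran from 2.01 to 13.5. No counts stand behind array values, so the number of arrays limits precision. The platform's gene table listed 1 gene for 13513 of 22810 probe sets, several for 503 and none for 8730, beside 64 array controls. A RefSeq table gave symbols and the order of genes.

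Probe sets above 4 on at least 3 of 15 arrays were tested (15912, controls left out), with a single model of all 15 arrays (limma 3.58.1, R 4.3.3, lmFit and eBayes, no trend). The 10 pairwise comparisons and an F test over 4 contrasts were read from it. Calls were made at a p under 0.05 after Benjamini-Hochberg adjustment across the tested probe sets. The script was checked on simulated data. Alternatives were no filter, a floor at 4, median centring, quantile normalization, array weights, pairwise fits, an eBayes trend, the replicate block and each array left out.

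Replicate numbers came from the titles, since descriptions repeat 1 number in bak1-1D and brs1-1D. Deviations of same-number arrays always correlated above 0.1 between bri1-5 and WS2 (0.104 to 0.346), bri1-1D (0.103 to 0.268) and brs1-1D (0.159 to 0.191). Between the other genotypes only some pairs did, as for WS2 with bri1-1D (0.077 to 0.344) and bri1-1D with bak1-1D (-0.12 to 0.32). The labels name no shared batch. The blocked value is therefore printed where it changes a call of bri1-5 against WS2, bri1-1D or brs1-1D.

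Genes named were the 3 members, the tested brassinosteroid genes, up to 4 called members of each list of relatives, and the 5 genes most correlated with each member. Members and lists were chosen with earlier results of these data known.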

Additional observations from a re-analysis of the deposited data

Results flagged for a closer look

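In all, 3 differences stood out because the lines' distances from bri1-5 differed from each other by a direct test between the lines. For BIM1, bak1-1D and brs1-1D lay on opposite sides of bri1-5 (-0.24 and 0.27 on the log2 scale) and differed by -0.51 ± 0.11 (limma adjusted p = 0.00782). For BIM1, bak1-1D and bri1-1D (-0.24 and 0.12 from bri1-5) differed by -0.36 ± 0.11 (limma adjusted p = 0.0440). For BRL1, bak1-1D and brs1-1D (-0.29 and 0.12 from bri1-5) differed by -0.41 ± 0.12 (limma adjusted p = 0.0385). BRL1 passed the filter partly through its brs1-1D arrays, and this difference carries that condition. None of these distances from bri1-5 was itself called. Raising values under 4 to 4 left BRL1 at -0.05 in bak1-1D and 0.13 in brs1-1D from bri1-5. With 1 array left out, the distance of BIM1 in bak1-1D ran from -0.35 (without bak1-1D replicate 2) to -0.11 (without bak1-1D replicate 3), and that of BRL1 in brs1-1D from 0.018 (without brs1-1D replicate 1) to 0.24 (without brs1-1D replicate 3). Groups of 3 arrays are too small for the search for single outlying arrays, which was not made.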

How the results depend on the processing

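The calls of BIM1 in brs1-1D against WS2 and against bak1-1D, and its F test, held under every alternative run, and BAT1 was called under none. The difference of BIM1 between bak1-1D and bri1-1D lost its call with all probe sets tested (-0.36, adjusted p = 0.0527), in a fit of the 6 arrays alone (-0.36, adjusted p = 0.105), after median centring (-0.34, adjusted p = 0.0621), after quantile normalization (-0.35, adjusted p = 0.0560) and with array weights (-0.35, adjusted p = 0.0617). That of BRL1 between bak1-1D and brs1-1D lost it in the pairwise fit (-0.41, adjusted p = 0.0555), after quantile normalization (-0.39, adjusted p = 0.0538) and with values under 4 raised to 4 (-0.18, adjusted p = 0.222). Raising them also ended the BRL1 call in brs1-1D against WS2 (0.18, adjusted p = 0.141) and its F test (adjusted p = 0.343), since 11 of its 15 values lie under 4. BRL1 in bri1-5 against WS2 became called with the replicate block (0.32, adjusted p = 0.0472) and with array weights (0.32, adjusted p = 0.0370). Raising values under 4 to 4 shrank that difference to 0.05 (adjusted p = 0.736). The block changed no other call of the 3 genes. For the remaining losses the cause was not tested.

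With 1 array left out, BIM1 ranged from 0.32 to 0.45 in bri1-1D against WS2, from -0.47 to -0.23 in bak1-1D against bri1-1D and, turning sign, from -0.079 to 0.16 in bak1-1D against WS2. BRL1 ranged from 0.34 to 0.56 in brs1-1D against WS2, from -0.53 to -0.31 in bak1-1D against brs1-1D, from 0.24 to 0.37 in bri1-5 against WS2, where it was called without brs1-1D replicate 3 (adjusted p = 0.0413), and from -0.051 to 0.080 in bak1-1D against WS2, and its F test from 0.00933 to 0.0696. Against WS2, BAT1 ranged from -0.29 to -0.099 in brs1-1D, from -0.26 to -0.061 in bri1-1D and from -0.22 to -0.030 in bri1-5, each between the fits without WS2 replicate 1 and without WS2 replicate 3. It turned sign in bak1-1D against WS2 (-0.17 to 0.028), bri1-1D against bri1-5 (-0.084 to 0.028), bak1-1D against bri1-5 (-0.010 to 0.12) and brs1-1D against bri1-1D (-0.078 to 0.010).

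Counts of all called probe sets moved more. Over the alternatives they ran from 1761 to 3783 (2799 as reported) in bri1-5 against WS2 and, against bri1-5, from 321 to 1256 (690) in bak1-1D, 112 to 457 (273) in brs1-1D and 6 to 61 (39) in bri1-1D. Against WS2 they ran from 828 to 2161 (1595) in bak1-1D, 2309 to 3710 (3241) in brs1-1D and 2246 to 3770 (3300) in bri1-1D. Between suppressed lines they ran from 719 to 1535 (1270) for bak1-1D and brs1-1D, 909 to 2016 (1611) for bak1-1D and bri1-1D, and 81 to 496 (346) for brs1-1D and bri1-1D.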
